A study of Mus musculus with 15 samples.

Results

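The collagen genes of the mouse were described in the embryonic first branchial arch, the tissue that forms the jaws. They were taken as every probe set whose only gene symbol had the form Col, number, a, number, with 1 gene of that form not analysed here. The rule gave 79 probe sets of 41 genes, out of 18194 genes with such a probe set on the array (45101 probe sets in all), and used no measured value. A probe set is a group of short probes that read 1 transcript or region, and 26 of the genes had more than 1.

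The 15 arrays measured total RNA of the first arch at E10.5, the middle of gestation, with 3 arrays in each of 5 groups. The groups were the mandibular branch of the Dlx5/6 mutant, the mandibular branch of the wild type (WT), the maxillary branch labelled KO, and the WT maxillary branch in a pair of groups called set 2 and set 1 here. The mandibular branch forms the lower jaw and the maxillary branch the upper jaw. Dlx5 and Dlx6 encode homeodomain transcription factors that set mandibular identity. The KO label named no gene, and the description shared by all samples listed dlx2, dlx1/2 and Dlx5/6 mutants as a plan in which arches were to be pooled. No allele, strain or sex was given, and the labels did not say what set the WT maxillary groups apart. Whether each array had its own embryo or pool was not stated, and the p-values therefore measure only the spread between these arrays, which may be technical.

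Collagens are triple-helical proteins of the extracellular matrix, assembled from 3 chains inside the cell. Fibrillar collagens form the cables of skin, bone and cartilage, and the fibril-associated collagens (FACITs) sit on the surface of those cables. Other classes form the meshwork of basement membranes, beaded filaments around cells, hexagonal short-chain networks, or span the plasma membrane. In the arches at this stage the neural crest mesenchyme has not yet condensed into cartilage or bone.

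The deposited signal is a linear intensity, and its trimmed mean was 150 on every array. The median signal lay between 26.6 and 33.5. Log2 changes refer to signal + 32 after quantile normalization, which understates the change of dim genes. A log2 change is given with limma's SE and a mean signal with its SD (n = 3). Adjusted p-values come from limma and were adjusted over all 31643 probe sets kept by a filter on low signal. A probe set was called where the adjusted p was under 0.05. The bacterial dap spike-in control split the arrays into a pair of array sets: it read 423 to 507 on 9 arrays (Dlx5/6 mutant, WT mandibular, WT maxillary set 1) and 3612 to 3774 on the other 6 (KO, WT maxillary set 2). Each comparison below that holds both sides within 1 of these array sets is named as such. Dlx5 had a signal of 10.9 ± 2.97 in the Dlx5/6 mutant, against 727 ± 40.5 in WT mandibular arrays. Dlx2 had a signal of 3.36 ± 0.180 in KO arrays, against 422 ± 20.1 in WT maxillary set 2, and Dlx1 had 209 ± 11.7 against 711 ± 30.8. The position of these probes relative to any deletion was not stated. Arch mesenchyme markers were measured for 6 of 6 genes and epithelial markers for 7 of 7. For these lists, sums that did not overlap and called genes are given beside the comparisons. Of the mural cell markers, Kcnj8 did not pass the filter on low signal.

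Of the 79 collagen probe sets, 52 passed the filter on low signal and covered 32 genes. The other 27 probe sets never exceeded a signal of 40.8 on any array. The 9 genes with no probe set that passed were Col10a1, the collagen of hypertrophic cartilage, Col9a2, Col4a3, Col4a4, Col6a4, Col6a5, Col8a1, Col17a1 and Col19a1. At least 1 of the comparisons between WT branches, of either mutant with its WT, or of the Dlx5/6 mutant with the WT maxillary branch called 17 probe sets of 12 genes. The remaining 20 genes that passed the filter were not called in any of these. The share of all probe sets called in at least 1 of these comparisons is not given, so this count has no background. Shares for each comparison are given below. The heat map of log2 changes shows the 52 probe sets by class.

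**Figure D1:**
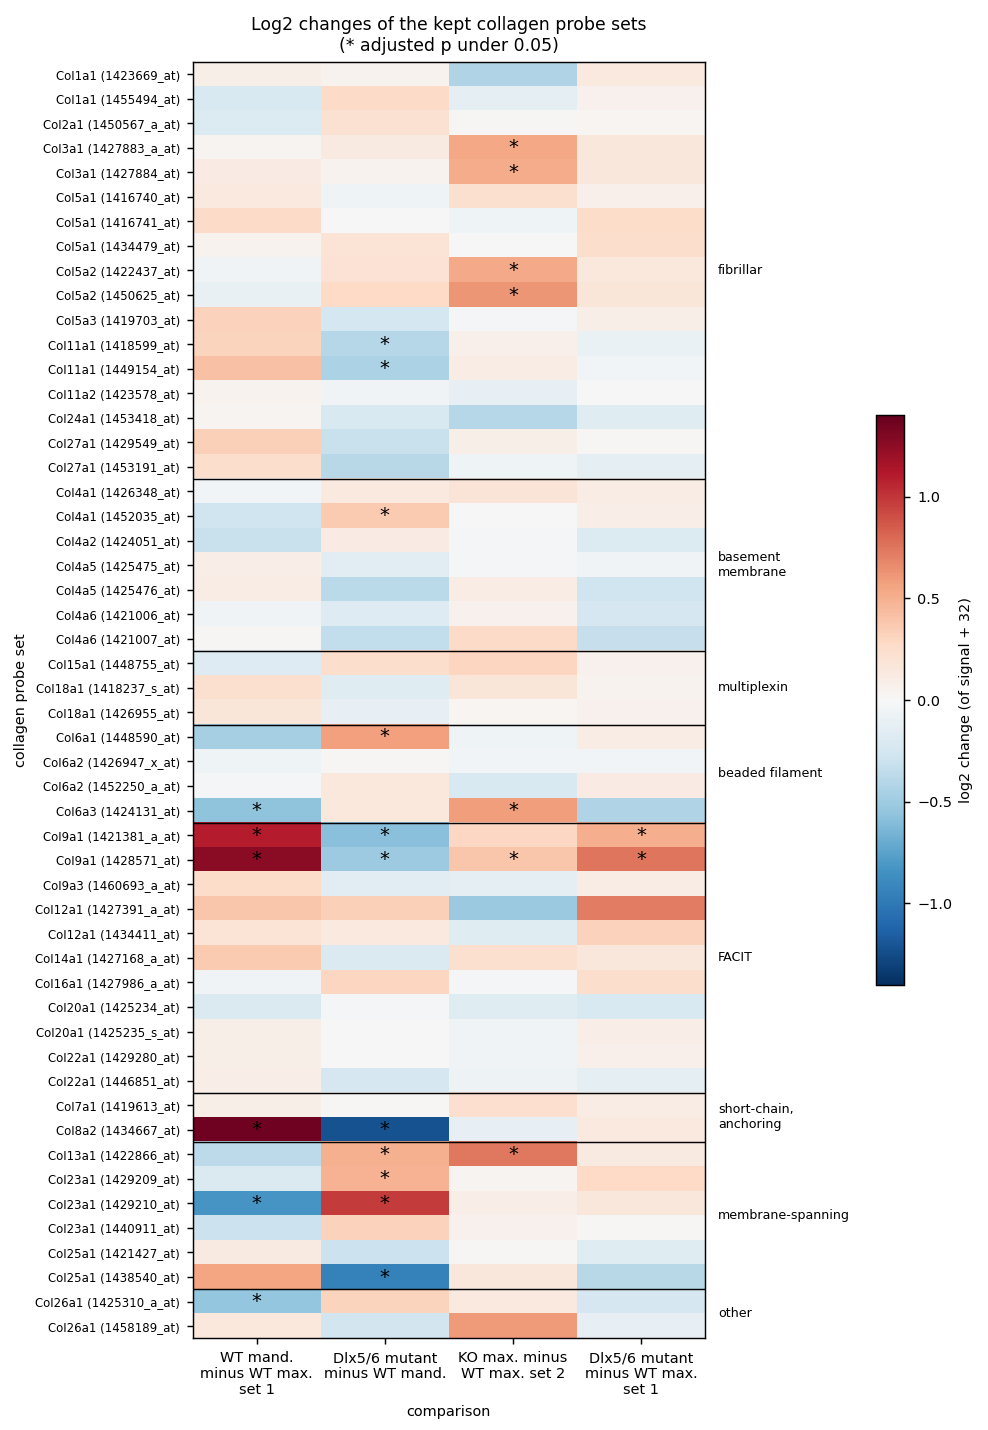
Log2 changes of the 52 collagen probe sets that passed the filter (rows, grouped by class) in 4 comparisons (columns), with red for higher and blue for lower in the first-named group and an asterisk at an adjusted p under 0.05. Col9a1 was called in every column on probe set 1428571_at, and the KO column holds 7 calls, all higher.

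The promoters of Col9a1 and Col8a2, the collagens with the largest difference between the WT branches, and of Col3a1, which was higher in the KO branch, are shown for the region before the transcription start. They are RefSeq sequences of build GRCm38.p6, plus strand, 250 bases upstream of the start, 5′ to 3′. The windows before the pair of annotated Col9a1 starts are chr1:24177360-24177609 and chr1:24194953-24195202, that of Col8a2 is chr4:126286544-126286793 and that of Col3a1 is chr1:45311288-45311537. Capitals mark matches to ACAAAG, the core bound by SOX factors, and CATCTG, an E-box bound by HAND and TWIST factors, each searched on both strands, so that CATCTG on the minus strand reads CAGATG.
Col9a1, upstream start: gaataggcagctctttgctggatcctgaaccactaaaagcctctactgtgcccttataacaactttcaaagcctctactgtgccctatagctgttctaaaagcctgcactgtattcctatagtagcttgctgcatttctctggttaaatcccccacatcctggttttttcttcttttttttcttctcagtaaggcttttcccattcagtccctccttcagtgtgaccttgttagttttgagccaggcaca
Col9a1, downstream start: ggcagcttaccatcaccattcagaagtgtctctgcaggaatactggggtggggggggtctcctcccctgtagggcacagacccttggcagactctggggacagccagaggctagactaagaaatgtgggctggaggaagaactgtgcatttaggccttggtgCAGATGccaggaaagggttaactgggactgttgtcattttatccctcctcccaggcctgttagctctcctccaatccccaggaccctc
Col8a2: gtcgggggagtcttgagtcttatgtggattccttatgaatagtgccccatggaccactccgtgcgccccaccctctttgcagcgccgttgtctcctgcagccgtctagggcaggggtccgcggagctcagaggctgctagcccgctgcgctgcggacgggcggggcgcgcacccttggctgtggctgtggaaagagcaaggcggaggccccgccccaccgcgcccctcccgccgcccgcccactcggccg
Col3a1: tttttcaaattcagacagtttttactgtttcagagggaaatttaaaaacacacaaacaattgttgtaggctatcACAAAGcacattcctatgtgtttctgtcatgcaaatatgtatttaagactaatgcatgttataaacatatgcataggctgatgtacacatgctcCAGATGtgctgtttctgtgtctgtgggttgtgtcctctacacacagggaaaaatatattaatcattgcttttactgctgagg
TAATTA, the core bound by homeodomain proteins such as the Dlx factors, was in none of these 4 windows. Over the 35 windows of 32 collagen genes with a RefSeq entry, TAATTA was in 2 (5.71%), in the genes Col10a1 and Col11a2, against 4.84% of all 32851 windows. CATCTG was in 3 (8.57%) against 14.4%, and ACAAAG was in 3 (8.57%) against 16.5%. These matches describe the letters of the windows only. Col3a1 and Col5a2 are neighbours on chromosome 1 with 0 genes between them, and Col9a1 is the neighbour of Col19a1 on the same chromosome.

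The comparison of the WT mandibular with the WT maxillary branch (set 1, same array set) asked which collagens differ between the normal lower and upper jaw primordia. Col9a1 and Col8a2 were higher in the mandibular branch, by over 1 on the log2 scale. Col9a1 encodes a chain of collagen IX, a FACIT on the surface of cartilage fibrils, and Col8a2 a chain of the short-chain collagen VIII. Col23a1, Col26a1 and Col6a3 were lower there. Of the 52 collagen probe sets 6 (11.5%) were called, 3 higher and 3 lower, against a background of 2.64% of all probe sets. The groups did not overlap for 21 of the 52 (40.4%), against 17.4% of all probe sets.

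Col9a1 had a signal on probe set 1428571_at of 2617, 2429 and 2819 in WT mandibular arrays, against 1129, 1012 and 1102 in WT maxillary set 1. Every mandibular array was above every maxillary array. The log2 difference was 1.26 ± 0.06 (adjusted p = 1e-12), and the other Col9a1 probe set, 1421381_a_at, differed by 1.10 ± 0.09 (adjusted p = 1.4e-08). Col8a2 had a signal of 206, 186 and 177 in WT mandibular arrays, against 63.0, 65.8 and 34.7 in WT maxillary set 1. The groups stood well apart, with a log2 difference of 1.36 ± 0.16 (adjusted p = 3e-06).

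Col23a1 encodes a membrane-spanning collagen. Its probe set 1429210_at had a signal of 90.4, 160 and 137 in WT mandibular arrays, against 251, 245 and 252 in WT maxillary set 1. All 3 mandibular arrays were lower, with a log2 difference of -0.82 ± 0.13 (adjusted p = 0.00019). The 2 other Col23a1 probe sets were not called, at -0.21 (adjusted p = 0.29) and -0.30 (adjusted p = 0.4). Col26a1, a little-studied secreted collagen, had a signal of 391, 309 and 337 on probe set 1425310_a_at in WT mandibular arrays, against 479, 536 and 523 in WT maxillary set 1. Its log2 difference was -0.54 ± 0.09 (adjusted p = 0.00032), and its dimmer probe set 1458189_at was not called (0.14, adjusted p = 0.88). Col6a3, a chain of the beaded filaments, differed by -0.56 ± 0.12 (adjusted p = 0.0093), with groups that did not overlap. Without WT mandibular array 2 its adjusted p was 0.055.

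The main collagens of cartilage and bone were not called between the WT branches with set 1 as the maxillary group. Col2a1, the fibrillar collagen of cartilage, differed by -0.19 ± 0.08 (adjusted p = 0.34), and Col11a1, its partner in the same fibril, by 0.31 ± 0.11 (adjusted p = 0.18). Col1a1, the main chain of bone and skin fibrils, differed by 0.08 ± 0.21 (adjusted p = 0.93). None of the 17 fibrillar or 7 basement membrane probe sets was called. Against WT maxillary set 2 Col1a1 on 1423669_at (0.88 ± 0.21, adjusted p = 0.0064) and Col2a1 (-0.31 ± 0.08, adjusted p = 0.014) were called. Col1a1 on 1455494_at was not (-0.06 ± 0.15, adjusted p = 0.88). Col5a2 on 1422437_at (0.58 ± 0.08, adjusted p = 1.5e-05) and 1450625_at (0.45 ± 0.11, adjusted p = 0.0071) was called against set 2 too. So was Col3a1 on 1427883_a_at (0.22 ± 0.05, adjusted p = 0.012), but not on 1427884_at (0.17 ± 0.08, adjusted p = 0.21). Against set 1 Col5a2 on 1422437_at differed by -0.05 ± 0.08 (adjusted p = 0.89) and Col3a1 on 1427884_at by 0.11 ± 0.08 (adjusted p = 0.66). Set 2 lies in the other array set, so branch and array set cannot be told apart in that reading. Markers of early cartilage cells had a summed signal of 528 to 631 in WT mandibular arrays and 556 to 683 in WT maxillary set 1. Of their 6 measured genes 0 were higher, and 1, Sox5, was lower (-0.55 ± 0.11, adjusted p = 0.0027). Matn1, a further cartilage marker, did not pass the filter. Sensory neuron markers were lower in the mandibular branch for 7 of 7 measured genes, with a summed signal of 447 to 479 in WT mandibular arrays and 2292 to 2309 in WT maxillary set 1. Glial markers were lower for 3 of 3 measured genes, with sums of 167 to 214 in WT mandibular arrays and 581 to 740 in WT maxillary set 1. Of the markers of muscle progenitors 2 of 5 were higher, with a summed signal of 319 to 331 in WT mandibular arrays and 143 to 195 in WT maxillary set 1. Of the mural cell markers 1 of 4, Rgs5, was higher, with sums of 438 to 490 in WT mandibular arrays and 260 to 320 in WT maxillary set 1. Arch mesenchyme markers summed to 6324 to 6909 in WT mandibular arrays and 7755 to 8237 in WT maxillary set 1. Of these 6 genes 4 were lower, Prrx1 (-0.30), Prrx2 (-0.81), Tfap2a (-0.51) and Twist1 (-0.39), and Pdgfra was higher (0.33). Macrophage markers summed to 238 to 263 in WT mandibular arrays and 388 to 400 in WT maxillary set 1, with 1 of 6 lower, Csf1r (-0.62). Epithelial sums did not overlap either, at 2223 to 2287 in WT mandibular arrays and 2015 to 2122 in WT maxillary set 1, with 0 of 7 called. The part of these cells in the collagen differences was not tested, and in whole tissue more cells of a type and more RNA per cell cannot be told apart.

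**Figure D2:**
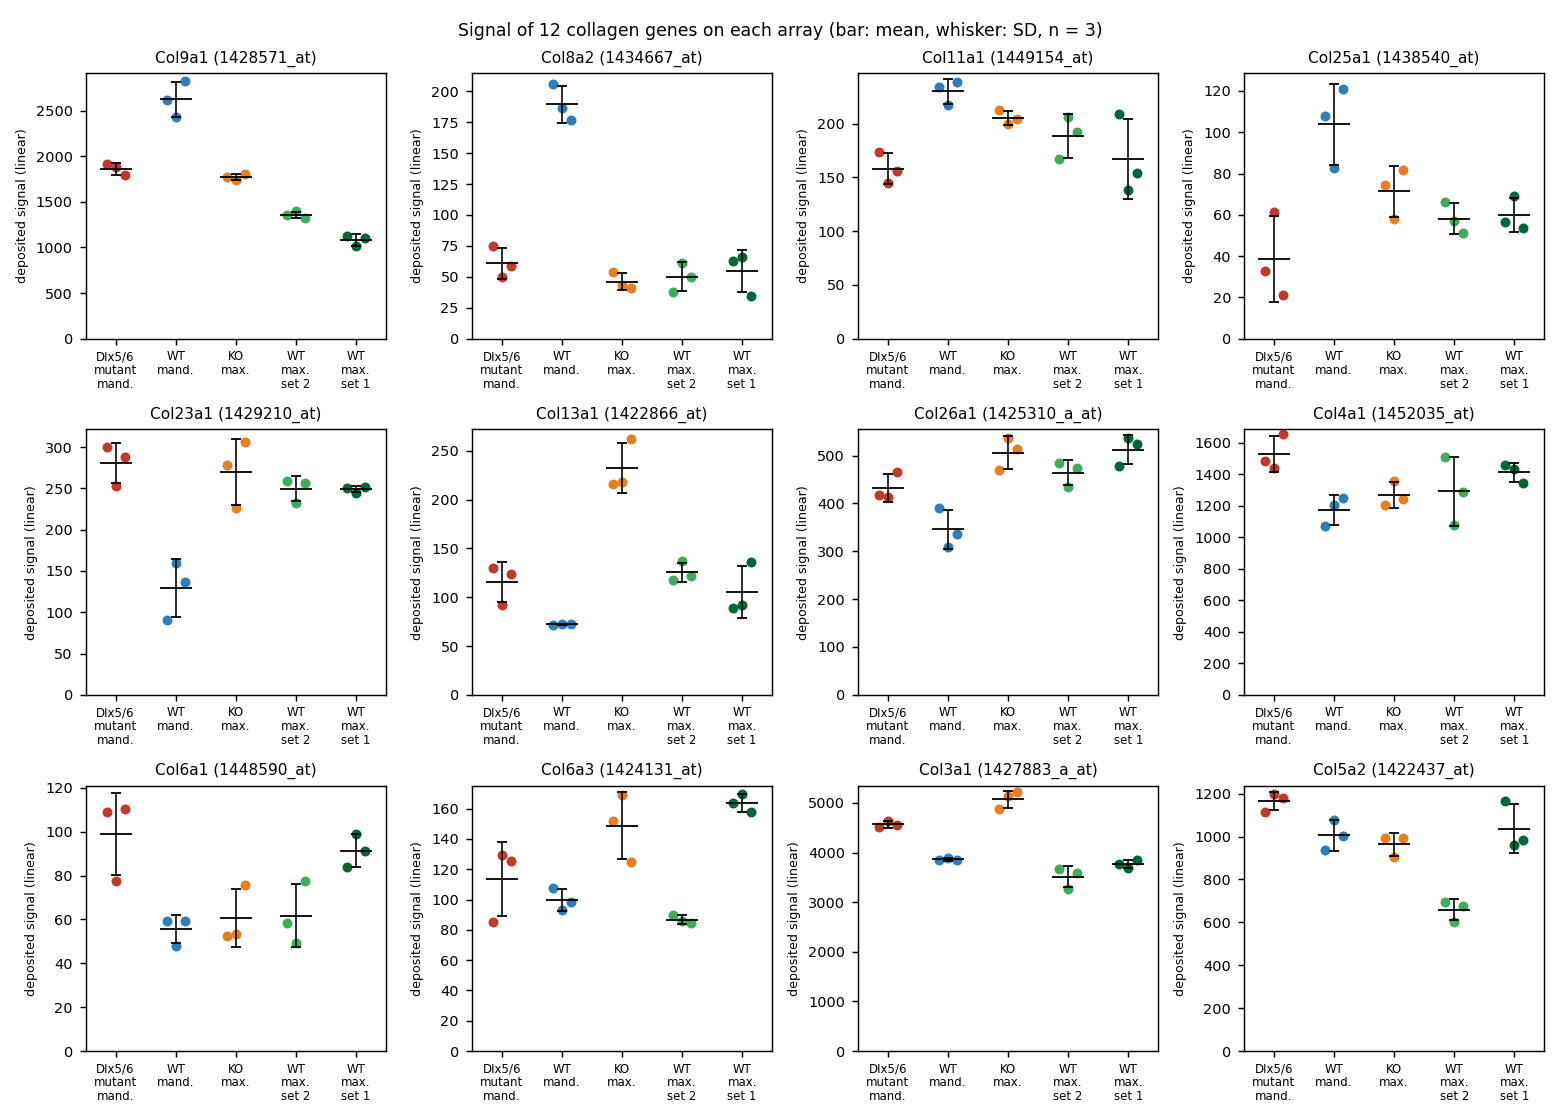
Deposited linear signal (vertical axis, from 0) of 12 collagen genes (the probe set with the lowest adjusted p of each) on each of the 15 arrays, as points by group, with a bar at the mean and whiskers of the SD (n = 3). Col9a1 and Col8a2 stand highest in the WT mandibular arrays, where Col23a1 on probe set 1429210_at stands lowest.

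The Dlx5/6 mutant mandibular branch was compared with the WT mandibular branch (same array set) to ask how the collagens of the lower jaw primordium respond to the mutation. Col8a2, Col9a1, Col25a1 and Col11a1 fell in the mutant, and Col23a1, Col13a1, Col6a1 and Col4a1 rose. Of the 52 probe sets 11 (21.2%) were called, 5 higher and 6 lower, against a background of 2.66%. The median log2 change of the 52 was 0.001, against -0.005 over all probe sets. The groups did not overlap for 24 (46.2%), against 18.8% of all probe sets. This comparison shares its WT mandibular arrays with the one between WT branches, so their values are not independent.

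Among the genes that fell, Col8a2 had a signal of 74.7, 49.8 and 58.4 in the Dlx5/6 mutant, against 206, 186 and 177 in WT mandibular arrays. No mutant array came near a WT array, and the log2 change was -1.22 ± 0.16 (adjusted p = 2.2e-05). Col9a1 had a signal on 1428571_at of 1918, 1884 and 1790 in the mutant, against 2617, 2429 and 2819 in WT mandibular arrays. The log2 change was -0.51 ± 0.06 (adjusted p = 6.5e-06), and that of 1421381_a_at was -0.59 ± 0.09 (adjusted p = 0.00025). Col25a1 encodes a membrane-spanning collagen, needed in the mouse for motor innervation of muscle. Its signal on 1438540_at was 32.9, 61.4 and 20.9 in the mutant, against 108, 82.5 and 121 in WT mandibular arrays, without overlap. The log2 change was -0.94 ± 0.17 (adjusted p = 0.002), while its dim probe set 1421427_at was not called.

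Col11a1 was called on both of its probe sets, with small changes. Its signal on 1418599_at was 205, 191 and 242 in the mutant, against 266, 307 and 312 in WT mandibular arrays. The changes were -0.40 ± 0.11 (adjusted p = 0.048) and, on 1449154_at, -0.44 ± 0.12 (adjusted p = 0.043). Both calls were lost in fits with 1 array left out. On 1418599_at the adjusted p ran from 0.14 to 0.23 without mutant array 1 or 2 or WT mandibular array 2 or 3. On 1449154_at it ran from 0.05 to 0.19 without any 1 of the 6 arrays compared. Its fibril partner Col2a1 was not called (0.21 ± 0.08, adjusted p = 0.22), with a signal of 991, 1028 and 1200 in the mutant, against 940, 888 and 918 in WT mandibular arrays. Col1a1 was not called either (0.05 ± 0.21, adjusted p = 0.96). Col3a1 had a deposited signal on 1427883_a_at of 4513, 4642 and 4550 in the mutant, against 3844, 3899 and 3855 in WT mandibular arrays. It was not called after quantile normalization (0.13 ± 0.05, adjusted p = 0.29), while without further scaling its change was 0.24 (adjusted p = 0.018).

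Among the genes that rose, Col23a1 had a signal on 1429210_at of 300, 253 and 288 in the mutant, against 90.4, 160 and 137 in WT mandibular arrays. Every mutant array was above every WT mandibular array, and the log2 change was 0.98 ± 0.13 (adjusted p = 2.6e-05). Probe set 1429209_at rose by 0.49 ± 0.09 (adjusted p = 0.0012). The brightest Col23a1 probe set, 1440911_at, was not called (0.32 ± 0.14, adjusted p = 0.33), although its groups did not overlap either.

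The other rises were smaller. Col13a1, a membrane-spanning collagen of cell adhesion sites, had a signal of 130, 92.3 and 124 in the mutant, against 71.6, 73.0 and 72.4 in WT mandibular arrays, a log2 change of 0.50 ± 0.13 (adjusted p = 0.041). Col6a1, a beaded filament chain, changed by 0.57 ± 0.14 (adjusted p = 0.032), with a signal of 109, 77.3 and 110 in the mutant, against 59.3, 48.1 and 59.5 in WT mandibular arrays. Col4a1, a basement membrane chain, changed by 0.37 ± 0.09 on 1452035_at (adjusted p = 0.028) and was not called on 1426348_at (0.14 ± 0.10, adjusted p = 0.61). The groups did not overlap for these 3 called probe sets. Each lost its call in several fits with 1 array left out. For Col13a1 the adjusted p was 0.087 to 0.17 without mutant array 1 or 3 or any 1 WT mandibular array. For Col6a1 it was 0.053 to 0.15 without the same arrays, and for Col4a1 0.054 to 0.16 without mutant array 1 or 3 or WT mandibular array 1 or 2. These 3 and both Col11a1 probe sets also lost the call with no filter (adjusted p 0.059 to 0.074) and with no intensity trend in the variance (0.063 to 0.17), and Col13a1 with array medians aligned (0.063). Col4a2, which lies head to head with Col4a1 on chromosome 8, was not called (0.11 ± 0.10, adjusted p = 0.7).

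Markers of other cell types also moved with this comparison. The summed mural cell markers were 267 to 324 in the mutant, against 438 to 490 in WT mandibular arrays, with 1 of 4 called, Rgs5 (-1.31 ± 0.15, adjusted p = 7.2e-06). The muscle progenitor sum was 188 to 214 in the mutant, against 319 to 331 in WT mandibular arrays, with 1 of 5 called, Myf5 (-0.92 ± 0.16, adjusted p = 0.0011). The macrophage sum was 378 to 422 in the mutant, against 238 to 263 in WT mandibular arrays, with 1 of 6 called, Csf1r (0.59 ± 0.09, adjusted p = 0.00041). The sensory neuron sum was 455 to 497 in the mutant, against 447 to 479 in WT mandibular arrays, with 1 of 7 called higher. The arch mesenchyme sum was 7543 to 7993 in the mutant, against 6324 to 6909 in WT mandibular arrays, with 3 of 6 called, Prrx2 (0.50), Twist1 (0.45) and Msx1 (-0.57). The erythroid sum was 29133 to 33902 in the mutant, against 26727 to 28403 in WT mandibular arrays, with 0 of 3 called. The part of these cells in the collagen changes was not tested. Cartilage markers had 0 of 6 genes called, with sums of 550 to 586 in the mutant, against 528 to 631 in WT mandibular arrays.

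The Dlx5/6 mutant mandibular branch was also set against the WT maxillary branch (set 1, same array set), to ask which collagens still differed from the maxillary level. Of the 52 probe sets 2 (3.85%) were called, against a background of 0.594%, and both belonged to Col9a1. Under the 2 other scalings Col3a1 on 1427883_a_at was called as well (0.28, adjusted p = 0.017, and 0.30, adjusted p = 0.015), against 0.16 (adjusted p = 0.29) after quantile normalization. Col9a1 was higher in the mutant by 0.75 ± 0.06 on 1428571_at (adjusted p = 3e-08) and by 0.51 ± 0.09 on 1421381_a_at (adjusted p = 0.0034). Its signal on 1428571_at was 1864 ± 66.0 in the mutant, against 1081 ± 60.9 in WT maxillary set 1, with WT mandibular arrays at 2622 ± 195. The groups did not overlap for 14 of the 52 (26.9%), against 13.7% of all probe sets.

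Col8a2 was not called in that comparison (0.14 ± 0.16, adjusted p = 0.88), at 61.0 ± 12.7 in the mutant, against 54.5 ± 17.2 in WT maxillary set 1. Nor was Col23a1 on 1429210_at (0.16 ± 0.13, adjusted p = 0.81), at 280 ± 24.4 in the mutant, against 249 ± 3.87 in WT maxillary set 1. The same held for Col26a1 on 1425310_a_at (-0.23 ± 0.09, adjusted p = 0.39) and Col6a3 (-0.42 ± 0.12, adjusted p = 0.19), whose groups did not overlap. Col12a1 on 1427391_a_at was not called (0.72 ± 0.22, adjusted p = 0.2), and its groups did not overlap either. Without set 1 array 3 its change was 0.98 (adjusted p = 0.038). These values share the mutant arrays with one comparison above and the set 1 arrays with another. Sensory neuron markers were lower in the mutant for 7 of 7 genes, with sums of 455 to 497 in the mutant and 2292 to 2309 in WT maxillary set 1. Glial markers were lower for 3 of 3 genes, with sums of 194 to 223 in the mutant and 581 to 740 in WT maxillary set 1. Rgs5 of the mural cell markers was higher (0.83) and Prrx2 of the mesenchyme markers lower (-0.31). Epithelial sums were 2231 to 2332 in the mutant and 2015 to 2122 in WT maxillary set 1, and erythroid sums 29133 to 33902 and 26067 to 28045, with 0 genes called in both lists. The part of these cells was not tested. A missing call does not show that the levels were equal.

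In the maxillary branch labelled KO the question was how collagens respond to the loss named only as KO, against WT maxillary set 2 of the same array set. Col3a1, Col5a2, Col13a1, Col6a3 and Col9a1 were called higher, and no collagen was called lower. The log2 change was above 0 for 30 of the 52 probe sets. Of the 52 probe sets 7 (13.5%) were called, all higher, against a background of 0.913% called and 0.465% called higher. The median log2 change was 0.031, against -0.002 over all probe sets. The groups did not overlap for 12 (23.1%), against 14.7% of all probe sets.

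Col3a1, the fibrillar collagen of soft connective tissue, had a signal on 1427884_at of 788, 799 and 678 in KO arrays, against 497, 492 and 572 in WT maxillary set 2. The KO arrays were all higher, with a log2 change of 0.52 ± 0.08 (adjusted p = 0.00065). The other probe set, 1427883_a_at, changed by 0.54 ± 0.05 (adjusted p = 2.2e-06). Its neighbour Col5a2, a chain of the collagen V that starts fibrils, had a signal on 1422437_at of 993, 903 and 992 in KO arrays, against 697, 602 and 677 in WT maxillary set 2. The changes were 0.53 ± 0.08 (adjusted p = 0.0003) and 0.62 ± 0.11 on 1450625_at (adjusted p = 0.0023). Col5a1, the other main chain of collagen V, was not called (0.22 ± 0.11, adjusted p = 0.52).

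Col13a1 changed most, with a signal of 216, 218 and 262 in KO arrays, against 118, 137 and 122 in WT maxillary set 2. All KO arrays lay above all WT arrays, and the log2 change was 0.74 ± 0.13 (adjusted p = 0.0032). Col6a3 had a signal of 152, 169 and 125 in KO arrays, against 89.8, 86.1 and 84.3 in WT maxillary set 2, a change of 0.58 ± 0.12 (adjusted p = 0.019). Without KO array 1 or 2 or any 1 WT set 2 array its adjusted p was 0.057 to 0.12, and with no intensity trend it was 0.05. Col9a1 had a signal on 1428571_at of 1769, 1739 and 1805 in KO arrays, against 1352, 1395 and 1322 in WT maxillary set 2. It changed by 0.39 ± 0.06 (adjusted p = 0.00066), and 1421381_a_at was not called (0.29 ± 0.09, adjusted p = 0.17).

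Markers of other cell types moved in the KO arrays too. The summed macrophage markers were 542 to 638 in KO arrays, against 357 to 390 in WT maxillary set 2, with 2 of 6 genes called higher, Csf1r (0.59) and Mrc1 (0.52). The endothelial sum was 1277 to 1515 in KO arrays, against 977 to 1098 in WT maxillary set 2, with 1 of 8 called higher, Emcn (0.47). The sensory neuron sum was 756 to 785 in KO arrays, against 932 to 987 in WT maxillary set 2, with 3 of 7 called lower. The muscle progenitor sum was 249 to 279 in KO arrays, against 153 to 205 in WT maxillary set 2, with 1 of 5 called higher, Lhx2 (0.74). The arch mesenchyme sum was 6983 to 7279 in KO arrays, against 7482 to 7872 in WT maxillary set 2, with Tfap2a higher (0.62) and Prrx1 lower (-0.28). In 5 more lists no gene was called although the sums did not overlap. Those of mural cells were 284 to 341 in KO arrays, against 206 to 254 in WT maxillary set 2, and those of the epithelium 2271 to 2395, against 1992 to 2093. Those of cartilage cells were 728 to 745 in KO arrays, against 591 to 693 in WT maxillary set 2, of osteogenic cells 92.2 to 131, against 73.3 to 82.3, and of glia 330 to 349, against 362 to 470. The part of these cells in the collagen changes was not tested.

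The 7 called probe sets were then read against WT maxillary set 1, although its arrays belong to the other array set. The KO arrays are the same in both readings. Col3a1 kept its call on both probe sets, at 0.36 ± 0.05 (adjusted p = 0.00011) and 0.47 ± 0.08 (adjusted p = 0.00039). Col13a1 differed by 0.97 ± 0.13 (adjusted p = 2.4e-05) and Col9a1 on 1428571_at by 0.69 ± 0.06 (adjusted p = 4.6e-08). Col9a1 on 1421381_a_at was not called here either (0.24 ± 0.09, adjusted p = 0.093). Col5a2 and Col6a3 were not called against set 1. Their log2 changes were -0.09 ± 0.08 on 1422437_at (adjusted p = 0.52), 0.06 ± 0.11 on 1450625_at (adjusted p = 0.78) and -0.12 ± 0.12 for Col6a3 (adjusted p = 0.63). Against set 1 Col1a1 on 1423669_at was lower in the KO (-1.22 ± 0.21, adjusted p = 0.00034). Its signal was 33.6 ± 17.2 in KO arrays, 53.0 ± 21.4 in set 2 and 114 ± 15.6 in set 1. The other Col1a1 probe set, 1455494_at, was not called against set 1 (-0.28 ± 0.15, adjusted p = 0.27). Col6a1 was lower against set 1 as well (-0.45 ± 0.14, adjusted p = 0.047), and Col26a1 on 1458189_at was higher (0.81 ± 0.22, adjusted p = 0.018). The brighter Col26a1 probe set, 1425310_a_at, was not called (0.01 ± 0.09, adjusted p = 0.95).

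**Figure D3:**
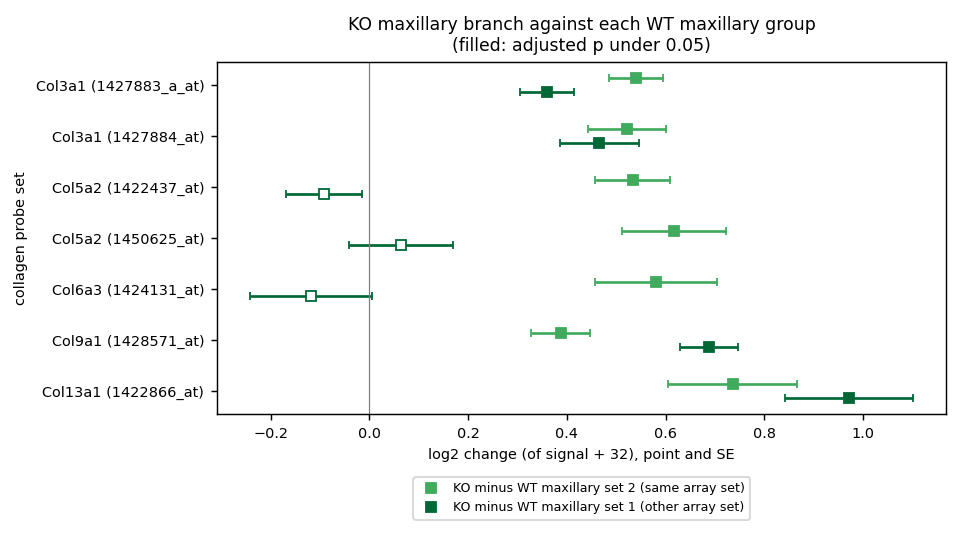
Log2 change of signal + 32 (horizontal axis, point and SE) of the 7 collagen probe sets called in the KO maxillary branch, against WT maxillary set 2 and against set 1, with filled squares at an adjusted p under 0.05. Col3a1 and Col13a1 lie to the right of 0 against both groups, while Col5a2 and Col6a3 lie near 0 against set 1.

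The WT maxillary groups also differed from each other in Col5a2 and Col6a3. The comparison shares its set 2 arrays with the KO comparison, and it called 6 of 52 probe sets (11.5%), 1 higher and 5 lower, against a background of 8.49%. Col5a2 was lower in set 2 (-0.63 ± 0.08, adjusted p = 9e-06, and -0.55 ± 0.11, adjusted p = 0.0015), as was Col6a3 (-0.70 ± 0.12, adjusted p = 0.00074). Col6a3 had a signal of 89.8, 86.1 and 84.3 in set 2, against 164, 169 and 158 in set 1. Col1a1 on 1423669_at differed by -0.79 ± 0.21 (adjusted p = 0.017), Col3a1 on 1427883_a_at by -0.18 ± 0.05 (adjusted p = 0.042) and Col9a1 on 1428571_at by 0.30 ± 0.06 (adjusted p = 0.002). Without set 1 array 3 or set 2 array 2 the adjusted p of Col1a1 was 0.078 to 0.12. That of Col3a1 was 0.051 to 0.26 without any 1 set 1 array or set 2 array 2 or 3. Under the 2 other scalings the Col3a1 change was -0.10 (adjusted p = 0.32 and 0.42), and with no intensity trend both Col3a1 (0.22) and Col1a1 (0.066) lost the call. Col3a1 on 1427883_a_at also lost it with no filter (0.076) and with the compared groups alone (0.094). The other probe sets of Col1a1 (1455494_at), Col3a1 (1427884_at) and Col9a1 (1421381_a_at) were not called. In that order their signals in set 2 were 71.0 ± 12.9, 520.5 ± 45.0 and 198 ± 9.42. Those in set 1 were 83.55 ± 13.3, 547 ± 46.2 and 209.8 ± 19.65. Sensory neuron markers were lower in set 2 for 6 of 7 genes, with sums of 932 to 987 in set 2 and 2292 to 2309 in set 1. Glial markers were lower for 2 of 3, Fabp7 (-0.63) and Sox10 (-0.79), with sums of 362 to 470 in set 2 and 581 to 740 in set 1. Mural cell sums were 206 to 254 in set 2 and 260 to 320 in set 1, with 0 of 4 called. Of the epithelial markers Krt18 was higher (0.26) and Epcam lower (-0.29). The part of these cells was not tested. Here WT group and array set cannot be told apart.

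The effects of the 2 mutants were compared in the same fit, as the Dlx5/6 effect in the mandibular branch minus the KO effect in the maxillary branch, each taken within its own array set. The test of the difference called 7 of 52 probe sets (13.5%), 1 higher and 6 lower, against a background of 1.09%. For Col9a1 the Dlx5/6 effect was -0.51 and the KO effect 0.39 on 1428571_at, a difference of -0.90 ± 0.08 (adjusted p = 4e-07), and 1421381_a_at differed by -0.87 ± 0.13 (adjusted p = 0.00023). Col8a2 changed by -1.22 in the Dlx5/6 mutant and -0.12 in the KO, a difference of -1.11 ± 0.22 (adjusted p = 0.0084). For these genes and for Col23a1 the calls of the difference held in every fit with 1 array left out. Col23a1 lost its call with no intensity trend (adjusted p = 0.067).

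Col23a1 on 1429210_at changed by 0.98 in the Dlx5/6 mutant and 0.09 in the KO, a difference of 0.89 ± 0.18 (adjusted p = 0.0092). Col3a1 ran the other way, with 0.13 in the Dlx5/6 mutant and 0.54 in the KO on 1427883_a_at, a difference of -0.41 ± 0.08 (adjusted p = 0.0047). Col25a1 differed by -1.10 ± 0.24 (adjusted p = 0.021), and Col3a1 on 1427884_at by -0.47 ± 0.11 (adjusted p = 0.039). With 1 array left out, Col25a1 lost the call in 8 fits (adjusted p 0.05 to 0.072) and Col3a1 on 1427884_at in 10 (0.054 to 0.12). Both Col3a1 probe sets lost it under the 2 other scalings (adjusted p 0.052 to 0.24). Col13a1 was the gene called higher in both mutants, at 0.50 and 0.74, and the difference was not called (-0.24 ± 0.18, adjusted p = 0.74). With no intensity trend Col25a1 (0.076) and both Col3a1 probe sets (0.15) lost the call too. With no filter Col25a1 (0.063) and Col3a1 on 1427884_at (0.051) lost it. The other probe sets of Col23a1 and Col25a1 were not called in the test of the difference. The same test called markers of other cells: Nefl (1.23), Nefm (0.97) and Neurod1 (0.89) were higher and Isl1 (-0.71) lower among sensory neuron markers, and Lhx2 (-1.03) and Myf5 (-1.34) were lower among those of muscle progenitors. Rgs5 of the mural cells was lower (-1.55) and Prrx1 of the mesenchyme higher (0.48), and the part of these cells was not tested. Branch, mutant label and array set all differ between the 2 effects and cannot be told apart, and the KO label named no gene.

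**Figure D4:**
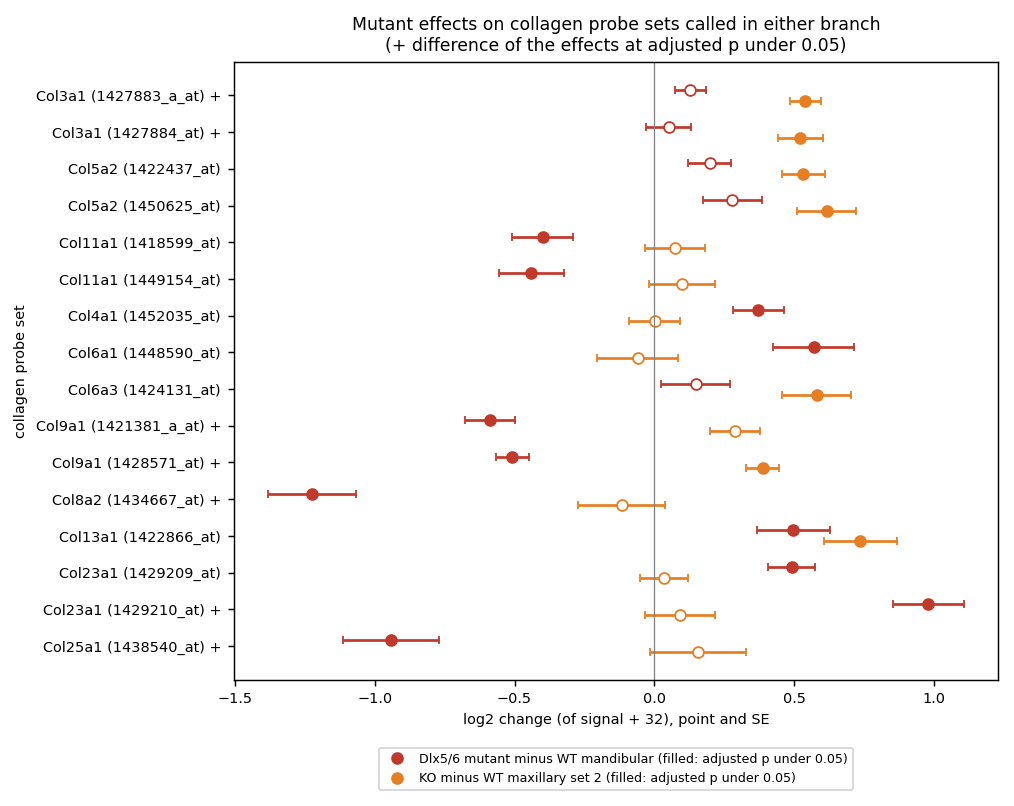
Log2 change of signal + 32 (horizontal axis, point and SE) of the collagen probe sets called in either mutant, in red for the Dlx5/6 mutant minus WT mandibular and in orange for the KO minus WT maxillary set 2. Filled points have an adjusted p under 0.05, and a plus sign after the name marks a difference of the effects at an adjusted p under 0.05. Col9a1 lies on opposite sides of 0 in the mutants, and Col13a1 lies to the right in both.

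By class, the calls are given as counts, and differences between classes were not tested. Over all probe sets 2.64% were called between the WT branches, 2.66% in the Dlx5/6 mutant and 0.913% in the KO. The fibrillar class (10 genes, 17 probe sets that passed) had 0 calls between the WT branches, 2 lower in the Dlx5/6 mutant and 4 higher in the KO. The FACITs (7 genes, 11 probe sets) had 2 higher in the WT mandibular branch, 2 lower in the Dlx5/6 mutant and 1 higher in the KO, all of Col9a1. Col9a3, the collagen IX chain encoded on chromosome 2, was not called (0.26, -0.16 and -0.13 in the same order), at signals of at most 28.9. The FACITs Col12a1 and Col14a1 were not called in any of the 3. Changes were 0.19, 0.13 and -0.17 for Col12a1 on 1434411_at and 0.36, -0.21 and 0.22 for Col14a1. Col12a1 on 1427391_a_at changed by 0.39, 0.33 and -0.52 (adjusted p 0.51, 0.57 and 0.38). Its groups did not overlap in either mutant.

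The membrane-spanning class (3 genes, 6 probe sets) had 1 lower in the WT mandibular branch, 3 higher and 1 lower in the Dlx5/6 mutant and 1 higher in the KO. The beaded filament class (3 genes, 4 probe sets) had 1 call in each of these comparisons, and Col6a2 was called in none (-0.03, 0.15 and -0.21 on 1452250_a_at). The basement membrane class (4 genes, 7 probe sets) had 1 call, that of Col4a1 in the Dlx5/6 mutant. Col4a5 on 1425476_at changed there by -0.38 ± 0.12 (adjusted p = 0.09), and with array medians aligned in place of quantile normalization its adjusted p was 0.046. The short-chain and anchoring class (2 genes, 2 probe sets) had Col8a2 higher in the WT mandibular branch and lower in the Dlx5/6 mutant, and Col7a1, the anchoring fibril collagen of skin, was not called (0.09, 0.01 and 0.24). Col26a1, outside these classes, had 1 of 2 probe sets lower in the WT mandibular branch and none called in either mutant. The multiplexins Col15a1 and Col18a1, collagens of basement membrane zones, had 0 of 3 probe sets called. Col18a1 changed by -0.11 ± 0.07 in the Dlx5/6 mutant (adjusted p = 0.54) and 0.03 ± 0.07 in the KO (adjusted p = 0.94).

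Genes that modify, secrete, bind or degrade collagens were read from a list of 78, of which 66 were measured. Between the WT branches 4 (6.06%) were called, against a background of 3.47% of genes. Plod2, a lysyl hydroxylase that prepares collagen cross-links, was higher in the WT mandibular branch (0.39 ± 0.08, adjusted p = 0.0047), as was the proteoglycan gene Bgn (0.87 ± 0.16, adjusted p = 0.0017). The matricellular gene Postn (-0.64 ± 0.09, adjusted p = 3.4e-05) and the collagenase gene Mmp14 (-0.49 ± 0.08, adjusted p = 0.00054) were lower.

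In the Dlx5/6 mutant 4 of the 66 (6.06%) were called, against 3.09% of genes. Plod2 had a signal of 404, 367 and 407 in the mutant, against 497, 567 and 580 in WT mandibular arrays (-0.44 ± 0.08, adjusted p = 0.0019). Sparc, which encodes a collagen-binding chaperone of the matrix, changed by -0.38 ± 0.09 (adjusted p = 0.028) and Thbs1 by -0.46 ± 0.12 (adjusted p = 0.042). Tgfbi, a collagen-binding adhesion protein, rose by 0.36 ± 0.09 (adjusted p = 0.03). In the KO 2 of 66 (3.03%) were called, against 1.2%, and both were higher. Tgfbi had a signal of 513, 529 and 585 in KO arrays, against 298, 289 and 264 in WT maxillary set 2 (0.88 ± 0.09, adjusted p = 2.8e-06), and the basement membrane linker gene Nid1 changed by 0.35 ± 0.08 (adjusted p = 0.038). None of the 7 collagen receptor genes or 8 processing and cross-linking genes was called in these comparisons.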

How the data were processed

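The authors deposited 1 linear intensity value per probe set and array, already scaled, since the mean with 2% trimmed at each end was 150 on every array. How the probe intensities were summarised and corrected for background is not given in the sources used here, and no detection calls were used. Samples were grouped by their titles. Values were converted to log2(intensity + 32). The array medians ranged over 0.159, above the limit of 0.1, so arrays were quantile normalized. Kept were probe sets that lay above the 40th percentile of their array on 3 or more arrays (31643 of 45101, after 64 controls were left out). All 15 arrays entered 1 limma fit (limma 3.58.1, R 4.3.3) with a mean per group, 10 residual degrees of freedom and an intensity trend. Tests were two-sided, with Benjamini-Hochberg adjustment over all kept probe sets, and calls were made at an adjusted p of 0.05. The SE of a log2 change had a median of 0.148, or 0.21 where the mutant effects were compared, and precision is limited by having 3 arrays per group. The procedure was tested on simulated data.

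Symbols came from the platform's annotation, and all 79 collagen identifiers were in the RefSeq gene table. The collagen genes, classes, marker lists and handling-gene list were chosen with earlier results of these data known. Named were every collagen gene called in a comparison, 17 fixed genes of the main classes, and called handling genes. A gene's value was that of its brightest probe set that passed the filter, preferring those without an a, s or x mark. Other probe sets of a collagen gene named as called are given where their call differs. Alternatives were 2 other scalings, a pseudocount of 8 or 128, no filter or a stricter one, no intensity trend, array weights, the compared groups alone, a replicate block, leaving out each array, and the other WT maxillary control. Arrays with the same replicate number did not deviate together (residual correlations of -0.0958 to 0.0846 over 30 pairs), and they were not treated as paired.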

Additional observations from a re-analysis of the deposited data

Results flagged for a closer look

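For 7 collagen probe sets the Dlx5/6 effect in the mandibular branch and the KO effect in the maxillary branch differed in the test of the difference itself (limma, adjusted over all kept probe sets). On the log2 scale the difference, Dlx5/6 effect minus KO effect, was -0.8952 and -0.8742 for the Col9a1 probe sets 1428571_at and 1421381_a_at, -1.108 for Col8a2, -1.0977 for Col25a1, 0.8878 for Col23a1 (1429210_at), and -0.4118 and -0.4714 for the Col3a1 probe sets 1427883_a_at and 1427884_at.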

How the results depend on the processing

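Of 681 values of the 39 called collagen results under other settings, 588 kept direction and call, 90 kept direction without the call, and 3 turned. All 78 called values under the 2 other scalings kept their direction. Shares of all probe sets called under the other settings are not given, so the counts that follow have no background. In the Dlx5/6 mutant the count of 11 called probe sets fell to 6 with no filter, where 79 were tested. It fell to 6 with no intensity trend, and ranged from 6 to 9 with 1 array left out. The count was 6 without mutant array 1 or WT mandibular array 2, and 7 without mutant array 3 or WT mandibular array 3. The difference of the mutant effects gave 3 calls instead of 7 with no intensity trend. The count ranged from 5 to 7 with 1 array left out there, from 5 to 7 between the WT branches, from 6 to 7 in the KO, from 2 to 3 for the mutant against WT maxillary set 1 and from 4 to 6 between the WT maxillary sets. With the other WT maxillary control, in the other array set, WT mandibular arrays gave 17 calls instead of 6 and the Dlx5/6 mutant 10 instead of 2. The share of all probe sets called in these readings is not given. The WT maxillary sets themselves differed in 8.49% of all probe sets, so these counts are not read as a result about collagens. With that control Col5a2, not called against set 1, turned to 0.5781 and 0.4453 between the branches, and Col6a3 to 0.1339. In the KO Col5a2 turned to -0.0926 and Col6a3 to -0.118. In the fit with a block for replicate number the counts were 6 between the WT branches, 10 in the Dlx5/6 mutant and 7 in the KO. They were 2 for the mutant against WT maxillary set 1, 6 between the WT maxillary sets and 6 for the difference of effects. The block cost Col11a1 on 1418599_at (adjusted p = 0.071) and Col3a1 on 1427884_at (0.062, difference of effects) their calls. The cause of these shifts was not tested. Dim probe sets limit what can be seen, since the 27 that were left out never exceeded 40.8.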

Other observations

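Of the collagen-handling genes, 6 of 66 (9.09%) were called between the WT maxillary sets, against a background of 8.78% of genes called in either direction. The share of all genes called lower is not given. All 6 were lower in WT maxillary set 2 than in WT maxillary set 1, and 0 were higher. They were Mmp14 (-0.68 ± 0.08, adjusted p = 6.5e-06), the tissue inhibitor gene Timp3 (-0.47 ± 0.11, adjusted p = 0.0081), Mmp2 (-0.37 ± 0.07, adjusted p = 0.0025), the fibronectin gene Fn1 (-0.30 ± 0.07, adjusted p = 0.0047), the laminin gene Lamc1 (-0.37 ± 0.12, adjusted p = 0.048) and the collagen chaperone gene Serpinh1 (-0.17 ± 0.05, adjusted p = 0.036), by limma. Mmp14 had a signal of 228, 253 and 264 in set 2, against 425, 435 and 406 in set 1. In the Dlx5/6 mutant against WT maxillary set 1 Postn was called, at 325 ± 27.8 in the mutant and 464 ± 29.3 in WT maxillary set 1 (-0.47 ± 0.09, adjusted p = 0.0055). In the difference of the mutant effects 3 of the 66 (4.55%) were called, against 1.36% of genes, all lower: Sparc (-0.75 ± 0.13, adjusted p = 0.0029), Plod2 (-0.67 ± 0.11, adjusted p = 0.0013) and Tgfbi (-0.52 ± 0.13, adjusted p = 0.048).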
